A study of Mus musculus with 12 samples.

Results

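Histones are the proteins around which nuclear DNA is wound, and the transcripts described here are those that carry the array symbols of the core and linker histone genes. They were chosen by symbol alone: every probe whose symbol begins with Hist1h, Hist2h, Hist3h, Hist4h, H2af, H3f3 or H1f, which gave 109 probes of 72 genes out of 45281 probes on the array. Of these, 89 probes of 59 genes belong to the clustered genes (the Hist prefix) and 20 probes of 13 genes to the variant genes. The total RNA measured came from kidneys of 12 mice, all male, of strain C57BL/6 and aged 10 weeks. In the colistin group, 6 mice were dosed with colistin, a polymyxin antibiotic with known kidney toxicity, at 16 mg/kg/day split over 2 doses. In the saline group, 6 mice received 0.1% saline 2 times a day, and both groups were exposed for 72 hours. The comparison asks what the drug did to kidney gene expression, and the labels name neither the cells nor the part of the kidney the RNA came from.

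Each array lay on 1 of 2 Illumina MouseWG-6 BeadChips, with 3 colistin and 3 saline mice on each. Colistin mice held positions 2, 4 and 6 and saline mice positions 1, 3 and 5 of both BeadChips, so position and treatment cannot be told apart. Between 14661 and 16154 probes were detected per array, where a probe counts as detected when its deposited detection p-value is under 0.01. Among the 12 kidneys, those of saline mice 2 and 5 were unlike the rest on measures over all probes: they had the highest values on the first principal component of all kept probes (64.6 and 28.7, against -27.1 to 13.6 in the other 10 mice), and the lowest upper quartiles of raw signal, 119.5 and 103.5, against 122.6 to 137.2 in the others. Kidney markers were present: all 6 proximal tubule markers were measured. Changes are given as colistin minus saline on a log2 scale with limma's standard error, after background correction and quantile normalization, and a probe is called at a Benjamini-Hochberg adjusted p under 0.05 over all 16179 kept probes.

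Clustered histone genes are copied many times over in the genome and supply the bulk of H2A, H2B, H3, H4 and H1 when DNA is replicated, so that in cultured cells their transcripts mark S phase. Their mRNAs mostly end in a conserved stem-loop in place of a poly(A) tail, and that stem-loop is bound by the protein Slbp. Variant genes such as H2afz and H3f3b stand alone, are polyadenylated and are expressed outside S phase, in resting tissues such as the adult kidney too. The labels give the labelling only as Illumina's standard protocol, and how the RNA was primed is not given in the sources used here.

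Promoters are shown for the genes on which the results below turn, as RefSeq windows (GRCm38.p6) of 300 bases, 250 before and 50 after the annotated start, printed 5′ to 3′ on the gene's strand. Capitals mark 3 motifs, each searched on both strands, so that a motif on the opposite strand appears as its reverse complement. One is the box spelled CCAAT, which is bound by the factor NF-Y. Another is the TATA box, spelled TATAAA, a core promoter element. The last is the octamer known from H2B promoters, spelled ATTTGCAT. No capitals of one motif overlap those of another in the windows shown. The marked TATAAA lies after the annotated start in the windows of Hist1h2ak and Hist1h2ad, and before it in that of H3f3b. Whether these stretches act as TATA boxes was not tested. Hist1h2ak (current symbol H2ac15; chr13:21753863-21754162, minus strand) and Hist1h2ad (H2ac7; chr13:23574131-23574430, plus strand) are clustered H2A genes with large average differences, and H3f3b (chr11:116024455-116024754, minus strand) encodes the replacement histone H3.3.
Hist1h2ak: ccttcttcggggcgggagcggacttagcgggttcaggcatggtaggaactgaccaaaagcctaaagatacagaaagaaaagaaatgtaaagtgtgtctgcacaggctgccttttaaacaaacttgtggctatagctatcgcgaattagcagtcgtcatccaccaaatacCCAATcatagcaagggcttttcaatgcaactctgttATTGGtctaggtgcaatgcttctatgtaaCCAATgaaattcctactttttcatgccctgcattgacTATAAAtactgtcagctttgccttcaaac
Hist1h2ad: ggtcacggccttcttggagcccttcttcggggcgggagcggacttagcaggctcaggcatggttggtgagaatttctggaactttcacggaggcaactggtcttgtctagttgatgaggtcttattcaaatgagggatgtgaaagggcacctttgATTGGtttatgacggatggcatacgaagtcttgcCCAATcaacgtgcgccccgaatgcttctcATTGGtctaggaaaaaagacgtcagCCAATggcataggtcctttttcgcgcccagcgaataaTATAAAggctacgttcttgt
H3f3b: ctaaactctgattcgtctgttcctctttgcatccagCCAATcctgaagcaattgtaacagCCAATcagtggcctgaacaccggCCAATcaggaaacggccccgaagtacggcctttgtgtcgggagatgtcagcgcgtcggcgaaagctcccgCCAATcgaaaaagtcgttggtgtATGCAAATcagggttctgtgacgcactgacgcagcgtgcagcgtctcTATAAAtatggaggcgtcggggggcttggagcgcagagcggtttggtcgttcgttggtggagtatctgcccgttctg

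Of the 72 histone genes, 64 had a promoter window. CCAAT was found in 45 of 53 clustered windows (84.9%) and in 7 of 11 variant windows, against 37.4% of all 32851 windows of the table. TATAAA was found in 58.5% of the clustered windows, against 13.6% of all windows, and in 1 of the 11 variant windows, that of H3f3b. The octamer was found in 24.5% of clustered windows and 1.74% of all windows, and 6 of the 12 H2B windows held it. By class, CCAAT was in all 12 windows of the Hist1 H2A genes and all 12 of the H2B genes, but in 3 of 11 of the H4 genes. Many H2A and H2B genes of the cluster are divergent neighbours: the window of Hist1h2bn shares 263 bases with that of Hist1h2ak on the opposite strand, and the window of Hist1h2bf shares 273 bases with that of Hist1h2ad. These matches are letters in a window and no measure of binding.

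Of the 109 probes, 61 were detected on at least 4 of the 12 arrays and entered the comparison: 49 clustered probes of 35 genes and 12 variant probes of 8 genes. The other 48 did not, 44 of them being detected on 0 arrays and 4 on 1 to 3 arrays. Just outside lay Hist1h1b on 3 arrays and single probes of H3f3a, Hist1h3f and Hist1h4k on 1 array each. Just inside lay a probe of Hist2h2aa1 on 4 arrays and a probe of Hist1h4f on 5. By class, 12 of 16 probes were kept for H2A of the Hist1 cluster, 7 of 7 for H2A of the Hist2 cluster, 12 of 20 for H2B, 6 of 18 for H3, 10 of 20 for H4 and 2 of 7 for clustered H1. The single H2A probe of the Hist3 cluster was not kept. Among the variants, 8 of 11 H2A variant probes, 3 of 4 H3.3 probes and 1 of 5 linker H1 probes were kept. Clustered genes are near-identical in sequence: 4 of the array's target keys were shared by at least 2 symbols (8 probes), and a probe may read more than the gene it is named for.

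With all 12 kidneys, limma called 0 of the 61 histone probes, against 74 of 16179 kept probes in all (0.457%), of which 52 were higher and 22 lower in colistin kidneys. At an unadjusted p under 0.05, 16 of the 61 histone probes passed, 15 of them higher and 1 lower in colistin kidneys, against 10.9% of all kept probes (5.56% higher and 5.35% lower). The 16 comprise 8 probes of Hist1 H2A genes, 2 of H3 genes, 1 of an H2B gene, 4 of H2A variants and 1 of H3.3. The smallest adjusted p of any histone probe was 0.266. The median log2 difference was 0.09 over the 49 clustered probes and 0.10 over the 12 variant probes, against 0.01 over all kept probes, and 37 of 61 histone probes (60.7%) had a positive difference, against 53.1% of all.

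**Figure D1:**
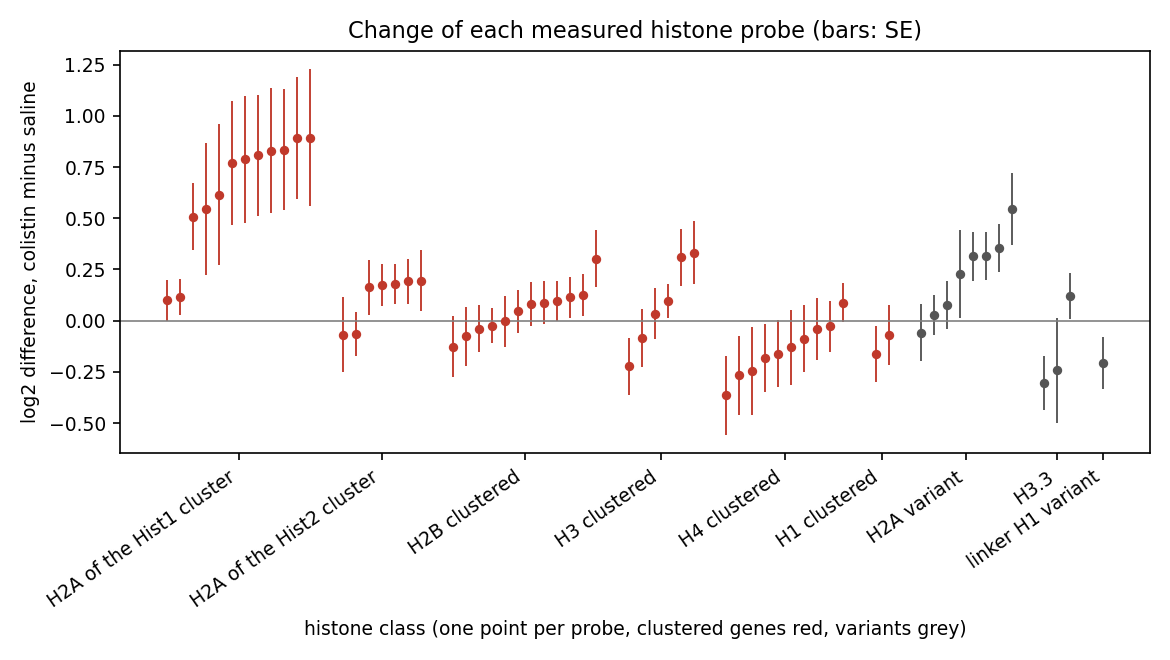
Log2 difference (colistin minus saline, vertical axis) of each of the 61 measured histone probes, grouped by histone class along the horizontal axis, with clustered genes in red and variants in grey; points are limma estimates and bars are standard errors. The 12 H2A probes of the Hist1 cluster all lie above 0 and reach 0.89, whereas 9 of 10 H4 probes lie below 0.

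H2A transcripts of the Hist1 cluster had the largest average differences of any histone class. H2A is 1 of the 4 core histones and pairs with H2B in the nucleosome. All 12 measured Hist1 H2A probes, of 8 genes, were higher on average in colistin kidneys, with a median log2 difference of 0.78. All 12 stayed above 0 under each of 27 alternative settings in which they were tested, where the class median ran from 0.62 to 1.26. Some of these settings could not change the sign, since block, eBayes, threshold and detection filter settings leave each probe's estimate as it was. None of them was called with all mice. In bulk kidney RNA, a change in the number of cells that make a transcript and a change in the amount per cell cannot be told apart.

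Hist1h2ak showed the pattern most plainly. Its normalized log2 signal was 7.37 at the lowest, 7.62 at the median and 8.17 at the highest in colistin kidneys, against 5.87, 6.43 and 8.01 in saline kidneys. The groups overlapped because saline mice 2 and 5 stood at 8.01 and 7.54, inside the colistin range, whereas the other 4 saline mice lay between 5.87 and 6.45, below every colistin mouse. The average difference was 0.89 ± 0.30 (SE, n = 6 and 6), or 1.86-fold, with an adjusted p of 0.286 (limma). It was called in 4 other settings: under median centring, at 1.15 (adjusted p = 0.0415, with 0.396% of all probes called), without saline mouse 2, at 1.14 (adjusted p = 0.0352, with 0.587% called), and with array weights and without saline mice 2 and 5, both described below. Hist1h2ad had 2 measured probes that gave nearly equal differences. The brighter one read 9.31, 9.63 and 10.27 (lowest, median and highest) in colistin kidneys, against 7.93, 8.51 and 9.94 in saline kidneys, a difference of 0.83 ± 0.30 with an adjusted p of 0.322. The dimmer one read 7.42, 7.74 and 8.42 in colistin kidneys, against 5.78, 6.64 and 8.16 in saline kidneys, a difference of 0.89 ± 0.34 with an adjusted p of 0.356. In both probes the ranges overlapped, and every colistin mouse was above saline mice 1, 3, 4 and 6.

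Hist1h2ah had 2 probes with the same spread of mice. One of them read 6.90, 7.45 and 8.21 in colistin kidneys, against 5.85, 6.48 and 7.69 in saline kidneys, and differed by 0.81 ± 0.30 (adjusted p = 0.340). The other read 7.11, 7.37 and 7.93 in colistin kidneys, against 5.66, 6.23 and 7.72 in saline kidneys, and differed by 0.83 ± 0.31 (adjusted p = 0.340). Hist1h2ag, a further copy, had the smallest p of all histone probes although its difference was smaller, since its values spread less. It read 5.03, 5.24 and 5.52 in colistin kidneys, against 4.38, 4.59 and 5.39 in saline kidneys, a difference of 0.51 ± 0.16 (adjusted p = 0.266). It was detected on all 6 colistin arrays and on 2 of the 6 saline arrays, so that its saline values lie mostly at background.

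The remaining Hist1 H2A probes separated by probe rather than by gene. Hist1h2ao (0.77 ± 0.30), Hist1h2an (0.54 ± 0.32) and 1 probe each of Hist1h2ai (0.79 ± 0.31) and Hist1h2af (0.62 ± 0.35) had differences of the size seen above. A brighter probe of Hist1h2ai differed by only 0.10 ± 0.10, and a brighter probe of Hist1h2af by 0.12 ± 0.09. For those genes the probes therefore disagree in size, though not in sign, and which of them tracks the transcript was not tested.

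**Figure D2:**
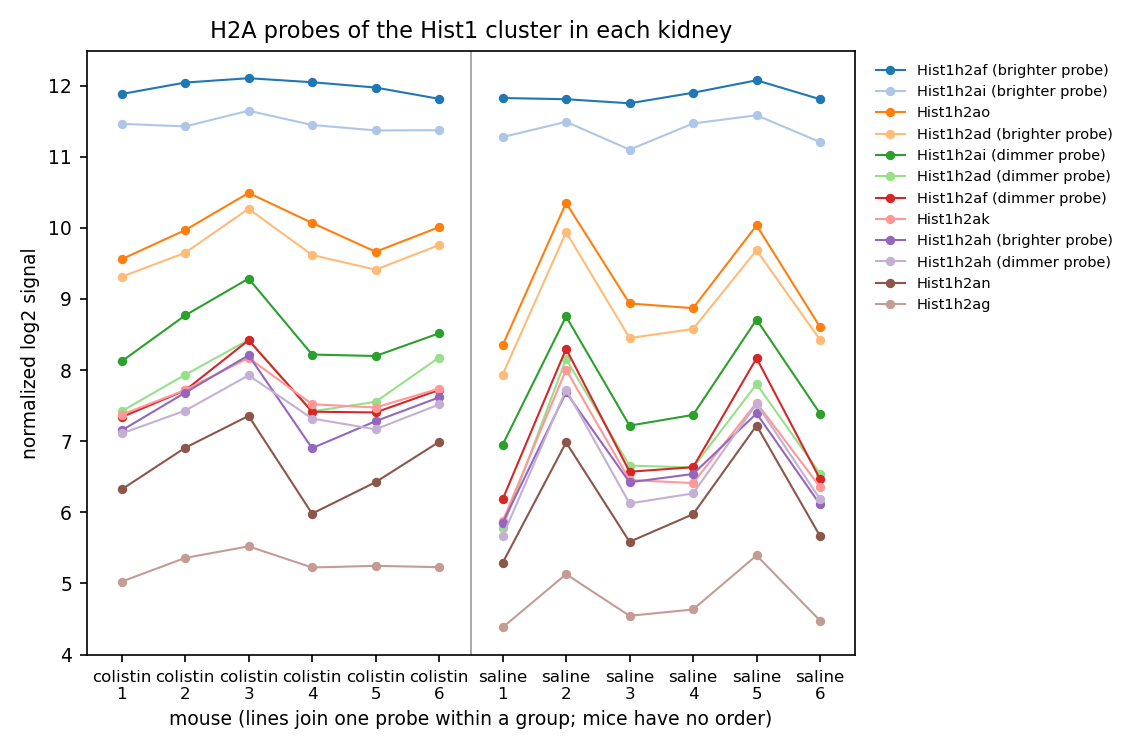
Normalized log2 signal (vertical axis) of the 12 H2A probes of the Hist1 cluster in each of 6 colistin mice (left) and 6 saline mice (right); each line joins the values of 1 probe within a group, and brighter and dimmer only tell apart the probes of 1 gene. Saline mice 2 and 5 reach the level of the colistin mice in 10 of the lines, while the upper lines, the brighter probes of Hist1h2af and Hist1h2ai, stay nearly flat.

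The order of the mice was shared by the Hist1 H2A probes. Leaving aside the brighter probes of Hist1h2af and Hist1h2ai, a choice made after their values were seen, 10 probes of 8 genes remained, with differences from 0.51 to 0.89. In all 10, saline mice 2 and 5 were the highest saline mice and lay within or above the colistin range, saline mouse 1 was the lowest of all 12 mice and colistin mouse 3 the highest. In all 10, every colistin mouse was above saline mice 1, 3, 4 and 6. Hist1h2ag and the brighter Hist1h2ad probe share an array target key, and which copies each probe reads was not checked. The 10 probes are of near-identical genes in the same mice, so they do not count as separate results. As the median over these probes of the deviation from each probe's mean over all 12 mice, colistin mice ranged from 0.03 in mouse 1 to 0.99 in mouse 3, and the saline mice stood at -1.22, 0.71, -0.78, -0.72, 0.45 and -0.83 in mice 1 to 6.

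Raw signals placed saline mouse 5 elsewhere. For Hist1h2ak the raw intensities, before any correction, were 241.5, 330.9, 389.8, 298.4, 279.0 and 274.1 in colistin mice 1 to 6, against 135.6, 290.7, 164.0, 155.2, 170.4 and 160.1 in saline mice 1 to 6. Only saline mouse 2 reached the colistin range on this scale, and saline mouse 5 was close to the other saline mice. Over the 10 probes, the raw signal of saline mouse 5 was below every colistin mouse in 9, and that of saline mouse 2 in 1. After quantile normalization saline mouse 5 was below every colistin mouse in 0 of the 10, and likewise in 0 of 10 in the authors' normalized values, whereas it was so in 9 of 10 when each array was only centred on its median. For Hist1h2ak, median centring put saline mouse 5 at 6.75 and quantile normalization at 7.54. The array of saline mouse 5 was the dimmest of all, with a median raw signal of 88.1, against 93.6 to 97.2 in the other 11.

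Leaving out saline mice 2 and 5 together, a setting taken over from earlier work on these data, changed the calls for the Hist1 H2A probes. With 6 colistin and 4 saline mice, limma called 9 of the 61 histone probes, all 9 higher in colistin kidneys and all 9 of Hist1 H2A genes, against 90 of 16179 probes in all (0.556%) and 72 called higher (0.445%). For 8 of them the differences ranged from 1.21 to 1.42, with Hist1h2ak at 1.39 ± 0.15 (adjusted p = 0.000407). Hist1h2ag, above background on 6 of 6 colistin arrays and on 0 of the 4 saline arrays left, was at least 1.37-fold higher. For this bound, its saline level was taken as no lower than the lowest detected signal of each array. Its adjusted p of 0.00202 (limma) is that of the fit to the measured values, and the bound itself was not tested. Hist1h2an stood at 1.04 ± 0.22 and was not called (adjusted p = 0.0580). Since saline mice 2 and 5 were also the highest saline mice for these probes, leaving them out enlarges these differences by construction.

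Overlap between the groups followed the same line. With all 12 mice, the groups overlapped for all 61 histone probes, whereas 1% of all kept probes had no overlap. Without saline mice 2 and 5, the groups were apart for 11 of 61 histone probes, all with colistin higher, against 1.26% of all kept probes apart in that direction. Of these 11 probes, 10 were of Hist1 H2A genes and the remaining one was of Hist2h2ac, a Hist2 H2A gene whose difference of 0.27 was not called (adjusted p = 0.416). For the 10 Hist1 H2A probes, saline mice 2 and 5 were the only saline mice that reached the colistin range after quantile normalization, the scale used here. Leaving them out therefore parts the groups by construction, and the array-wide share is no measure of enrichment for these probes. A fit that weighted each array by its fit to the rest also called 9 histone probes, and all 9 were those called without the pair of saline mice, against 2.91% of all probes called and 1.23% called higher in that fit. The weights given to saline mice 2 and 5 were not examined. Both fits rest on the same arrays, so the matching calls do not count as separate results.

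**Figure D3:**
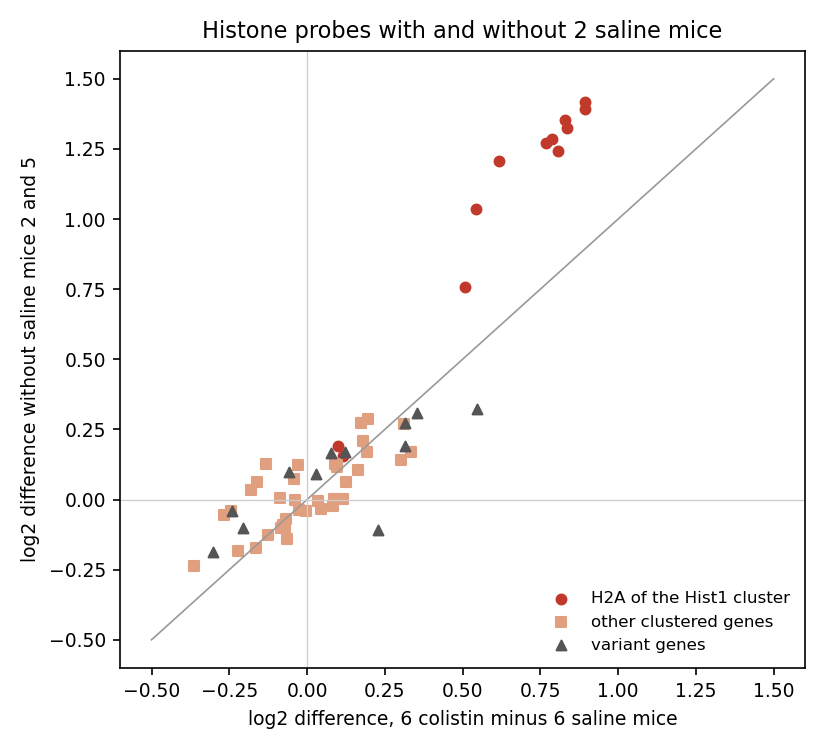
Log2 difference of the 61 histone probes without saline mice 2 and 5 (vertical axis) against the difference with all 12 mice (horizontal axis); the diagonal marks equal values, and symbols tell apart Hist1 H2A probes, other clustered probes and variant probes. Of the Hist1 H2A probes, 10 lie well above the diagonal, at fitted values of 0.76 (Hist1h2ag, whose remaining saline values are at background) to 1.42 without these mice, whereas the other probes stay between -0.24 and 0.32.

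On each BeadChip alone, the same 10 probes were higher on average in colistin kidneys: by 0.50 to 0.85 on BeadChip 1 and by 0.47 to 1.0 on BeadChip 2, with 3 mice a group. A test of whether the treatment difference itself differed between BeadChips found 0 of 61 histone probes, as it did 0 of all 16179.

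Neighbouring H2A and H2B genes, some of which share a stretch of promoter, stood apart in their average differences in the Hist1 cluster. Hist1h2ak differed by 0.89 ± 0.30, while its neighbour in RefSeq gene order, Hist1h2bn, differed by -0.08 ± 0.15. Hist1h2ad stood at 0.83 and 0.89 by its probes, while Hist1h2bf, which overlaps its window, stood at 0.08 ± 0.11. Hist1h2ag differed by 0.51 and Hist1h2bj by 0.05. Hist1h2ah stood at 0.81 and 0.83, against 0.10 and -0.004 for the probes of Hist1h2bk. In the Hist2 cluster, Hist2h2ac stood at 0.17 and -0.07 by its probes and Hist2h2be at 0.30 and -0.04. Of 12 pairs of probes in 5 pairs of genes, the H2A probe had the larger difference in 9. Several probes enter more than 1 pair, so the pairs do not count as separate results. In the Hist1 pairs, every H2B probe was brighter on average than the H2A probe beside it. The bright H2A probes of Hist1h2af and Hist1h2ai, which differed by 0.12 and 0.10, were not among the pairs. The difference between the members of a pair was not tested.

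**Figure D4:**
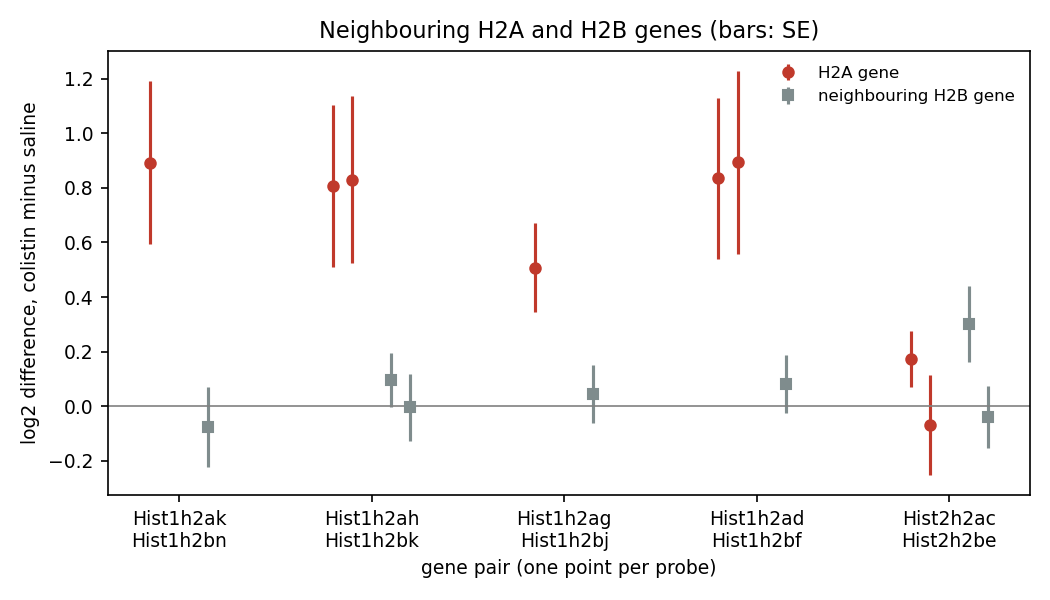
Log2 difference (colistin minus saline, vertical axis) of H2A genes (red circles) and the H2B genes next to them (grey squares) for 5 neighbouring pairs along the horizontal axis; 1 point per probe, bars are standard errors. In the 4 pairs of the Hist1 cluster the H2A points lie between 0.51 and 0.89 and the H2B points between -0.08 and 0.10.

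The 12 H2B probes had a median difference of 0.06 and ran from -0.13 to 0.30, with 7 of 12 positive, and 0 called. The largest, Hist2h2be at 0.30 ± 0.14, was detected on 5 of 6 colistin and 4 of 6 saline arrays. The 7 Hist2 H2A probes had a median of 0.17 and ran from -0.07 to 0.19. The 6 H3 probes had a median of 0.06, with Hist2h3c1 at 0.33 ± 0.16 and Hist1h3e at 0.31 ± 0.14 at the top and Hist2h3b at -0.22 ± 0.14 at the bottom. H4 probes leaned the other way: 9 of 10 had a negative difference, with a median of -0.15 and Hist1h4k lowest at -0.36 ± 0.19, but none was called. The H4 median turned to 0.07 under median centring, a scaling that moved the median of all probes to 0.20, so that relative to all probes it was -0.12, and it turned to 0.05 without saline mice 2 and 5. After quantile normalization, saline mice 2 and 5 were again the highest saline mice in H4. They stood at 0.34 and 0.54, as the median over the 10 probes of the deviation from each probe's mean. Raw signals did not give this order: saline mouse 5 was below saline mice 2 and 4 for every H4 probe. For Hist1h4a the raw signal was 477.4 in saline mouse 5, against 804.1 in saline mouse 2 and 654.3 in saline mouse 4. Linker histone Hist1h1c, the clustered H1 gene that was measured, differed by -0.16 ± 0.14 and -0.07 ± 0.15 by its probes.

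Among the variant histones, H2afx had the largest average difference, and no probe was called with all mice. H2afx encodes H2A.X, the variant that is phosphorylated beside DNA breaks. Its signal was 6.13 at the lowest, 6.38 at the median and 6.65 at the highest in colistin kidneys, against 5.24, 5.87 and 6.57 in saline kidneys, so the groups overlapped. It was higher on average by 0.55 ± 0.18, or 1.46-fold (adjusted p = 0.272), with all 6 colistin mice above the saline mean. Without saline mouse 1 the difference was 0.69 ± 0.14 and passed the test (adjusted p = 0.0216, limma), in a fit that called 2.04% of all probes. Saline mouse 1 was the highest saline mouse, at 6.57, and the only one inside the colistin range. Leaving it out therefore enlarges the difference and parts the groups by construction. Without saline mice 2 and 5 the difference was 0.32 ± 0.14 (adjusted p = 0.634). Those mice were the lowest saline mice, at 5.24 and 5.58, so leaving them out shrinks the difference by construction.

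H2afj, an H2A variant gene, was read by 3 probes that gave like differences. They differed by 0.35 ± 0.12, 0.32 ± 0.12 and 0.31 ± 0.12, with adjusted p-values of 0.281, 0.353 and 0.367. The first read 6.73, 7.15 and 7.41 in colistin kidneys, against 6.50, 6.80 and 6.98 in saline kidneys. The second read 7.75, 7.83 and 8.03 in colistin kidneys, against 7.14, 7.53 and 7.96 in saline kidneys, and the third 5.86, 6.03 and 6.25, against 5.59, 5.66 and 6.26. The groups overlapped in each, and the 3 probes share 1 gene and so do not count as separate results.

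H2afy encodes macroH2A, an H2A with a large extra domain. It read 8.58, 8.85 and 8.91 in colistin kidneys, against 7.50, 8.81 and 9.01 in saline kidneys, a difference of 0.23 ± 0.22 (adjusted p = 0.678). The low saline value was that of mouse 2, and without saline mice 2 and 5 the difference was -0.11 ± 0.10. H2afz, which encodes H2A.Z, the variant found beside active promoters, read 9.88, 10.26 and 10.45 in colistin kidneys, against 9.89, 10.15 and 10.36 in saline kidneys, a difference of 0.08 ± 0.12. H2afv, a second H2A.Z gene, read 9.89, 10.08 and 10.13 by one probe in colistin kidneys, against 9.71, 10.005 and 10.27 in saline kidneys, and 7.98, 8.17 and 8.32 by the other, against 7.73, 8.30 and 8.65. Its differences were 0.03 ± 0.10 and -0.06 ± 0.14, both smaller than their standard errors.

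H3.3, the H3 that replaces replicated H3 outside S phase, has the same protein sequence from H3f3a and H3f3b. H3f3b was the only histone gene with a probe lower at an unadjusted p under 0.05. That probe read 9.96, 10.49 and 10.60 in colistin kidneys, against 10.42, 10.72 and 10.98 in saline kidneys, a difference of -0.30 ± 0.13 (adjusted p = 0.419), with all 6 colistin mice below the saline mean. A second H3f3b probe, detected on 3 of 6 colistin and 3 of 6 saline arrays, read 4.47, 4.77 and 5.28, against 4.58, 4.74 and 6.32, a difference of -0.24 ± 0.26. H3f3a went the other way, at 10.71, 10.91 and 11.28 in colistin kidneys, against 10.56, 10.79 and 11.01 in saline kidneys, a difference of 0.12 ± 0.11 (adjusted p = 0.672). H1f0, the linker histone of resting cells, read 5.59, 5.69 and 5.98 in colistin kidneys, against 5.51, 5.96 and 6.33 in saline kidneys, a difference of -0.21 ± 0.13 (adjusted p = 0.544).

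**Figure D5:**
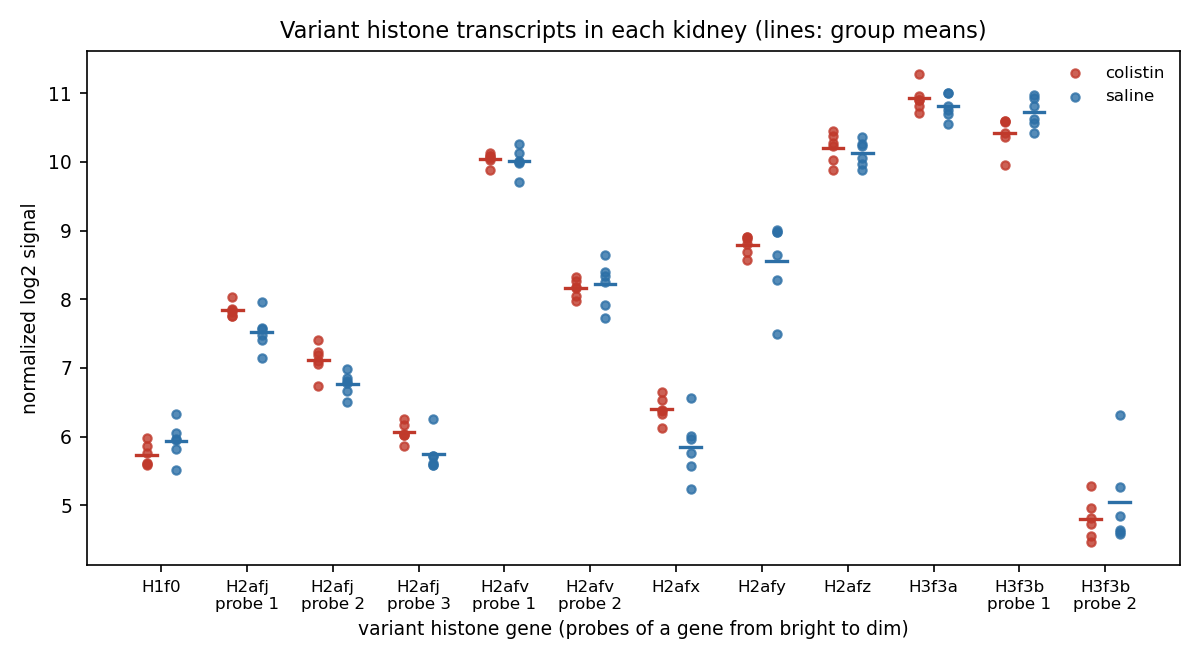
Normalized log2 signal (vertical axis) of the 12 measured probes of variant histone genes in each colistin mouse (red, left of each pair) and each saline mouse (blue, right); horizontal lines are group means of 6 mice, and probes of 1 gene are numbered from bright to dim. The colistin mean of H2afx is 0.55 above the saline mean with overlapping points, and 1 low saline point sets H2afy apart.

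Genes that act with histones were read beside them from 5 lists, 1 probe a gene. Of 14 measured genes of G2 and mitosis, 12 rose and 0 fell, with a median of 1.10, against 0.321% of all probes called higher. Anln, a scaffold of the dividing cell's furrow, rose by 1.64 ± 0.15 (adjusted p = 8.39e-05), Mki67, the proliferation marker Ki-67, by 1.38 ± 0.14, and Prc1, a spindle midzone protein, by 1.77 ± 0.19. Top2a, a DNA topoisomerase, was at least 1.87-fold higher, since it was above background on 6 of 6 colistin and 0 of 6 saline arrays. Anln was above background on 3 and Mki67 on 5 of the 6 saline arrays. Like Anln and Top2a, other genes of this list were above background on fewer than 4 saline arrays. All of these passed the detection filter only with colistin arrays, where they were higher. The count and median of this list thus depend in part on the filter, and the share over all probes is no measure of enrichment. Of 21 measured genes of S phase and DNA replication, 2 rose and 0 fell, with a median of 0.25. These were Rrm2, a subunit of ribonucleotide reductase, at 1.32 ± 0.12 and detected on 2 of 6 saline arrays, and Uhrf1, which binds hemimethylated DNA behind replication forks, at 0.93 ± 0.14.

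After quantile normalization, saline mice 2 and 5 were the highest saline mice in both lists, as for the Hist1 H2A probes, and lay below every colistin mouse. List means here and below were taken on that scale only. For the Hist1 H2A probes, that scale placed saline mouse 5 higher than raw signals did. The mean difference of the S phase genes from the saline average was 0.16 to 0.43 in the colistin mice, against 0.07 and 0.10 in this pair of saline mice. For the G2 and mitosis genes it was 0.85 to 1.41 in the colistin mice, against 0.25 and 0.08 in the same pair and 0.04 in saline mice 3 and 6. Cenpa, the histone H3 of centromeres, which the choice by symbol does not take in, rose by 0.93 ± 0.19 (adjusted p = 0.0434), and it was the only 1 of 4 measured genes of the centromeric list that was called. The mean of this list was 0.27 to 0.72 in the colistin mice, against 0.36 in saline mouse 2, which is inside that range, and -0.18 in saline mouse 5.

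Genes that make and handle histones were not called. Of 8 measured genes of histone mRNA synthesis and 3-prime processing, limma called 0, and 0 had an unadjusted p under 0.05, with a median of 0.11. Srrt, on the array as Ars2 and known to bind the mRNA cap complex, stood at 0.32 ± 0.16 and Sympk, a cleavage scaffold, at 0.31 ± 0.16, while Slbp and Npat were not detected on enough arrays to be measured. Of 25 measured histone chaperone and variant exchange genes, limma called 0, and 5 had an unadjusted p under 0.05, against 10.9% of all kept probes, with a median of 0.10. Both large subunits of the CAF-1 chaperone that loads new H3 and H4 at replication forks were at the top by p, Chaf1b at 0.48 ± 0.13 (adjusted p = 0.176) and Chaf1a at 0.37 ± 0.11 (adjusted p = 0.231).

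Markers of other kidney cell types were read in the same mice. Of 7 endothelial markers, 6 were measured and 0 called, and 0 of 6 was higher in colistin kidneys, with a median of -0.49. Their summed signal ran from 1669 to 2482 in colistin kidneys and from 1402 to 4445 in saline kidneys. As a mean difference from the saline average, they stood at -0.70 to -0.32 in colistin mice, against 0.47 in saline mouse 2, 0.28 in saline mouse 5 and -0.92 in saline mouse 1. On this quantile-normalized scale, mice 2 and 5 were thus the highest and mouse 1 the lowest within the saline group, as for the Hist1 H2A probes. Every colistin mouse, by contrast, was below the other 5 saline mice.

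Podocyte markers (3 of 4 measured, 0 called, median -0.20) placed the saline mice alike, at -0.71 to 0.03 in colistin mice, against 0.49 in saline mouse 2, 0.44 in saline mouse 5 and -0.69 in saline mouse 1. Macrophage and fibroblast markers did not. Macrophage markers (6 of 7 measured, 0 called, median -0.45) stood at -0.60 to -0.17 in colistin mice, against 0.36 in saline mouse 2, 0.05 in saline mouse 5, 0.06 in saline mouse 6 and -0.28 in saline mouse 3, the lowest. Fibroblast and mural markers (4 of 5 measured, 0 called, median -0.74) stood at -0.85 to -0.36 in colistin mice, against 0.64 in saline mouse 2, -0.10 in saline mouse 5 and -0.39 in saline mouse 1. The called marker was Pvalb, 1 of 4 measured for the thick limb and distal tubule, which fell by 1.13 ± 0.19 (adjusted p = 0.0136), with 9.16, 9.38 and 9.53 in colistin kidneys, against 9.83, 10.42 and 11.25 in saline kidneys. Of the proximal tubule (6 measured), collecting duct (4) and erythroid (3) markers, limma called 0, with 0, 2 and 0 at an unadjusted p under 0.05. No lymphocyte or neutrophil marker was detected on enough arrays to be measured, 0 of 8 and 0 of 6. The part of any of these markers in the histone values was not tested.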

How the data were processed

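Mean bead intensities of 45281 probes per array, on a linear scale, and detection p-values against negative control beads were deposited by the authors, per the file headers. The intensities were not background-subtracted. The authors also deposited normalized intensities, used here as an alternative. Per the submitters' processing notes, GenomeStudio and Partek were used, with no version or setting stated.

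The neqc function of limma 3.58.1 (R 4.3.3) was run on the raw intensities: background correction guided by the detection p-values, an offset of 16, quantile normalization and log2. The offset compresses differences of dim probes. A probe was kept when its detection p was below 0.01 on 4 or more of the 12 arrays (16179; 29102 dropped). Colistin was compared with saline by lmFit and eBayes, in a two-sided test whose p-values were adjusted by Benjamini and Hochberg's method across the kept probes, and called at 0.05. BeadChip entered as a fixed term, as an interaction with treatment, and by separate fits. For Top2a, and for Hist1h2ag without saline mice 2 and 5, the dim group was set at the higher of its own value and the lowest detected signal of each array. On simulated data for this comparison (16179 probes, 200 changed), the fit called 93% of changes of 1 log2 unit and 100% of changes of 2, with 16 false calls. The changed probes were picked at random and the noise was independent. These shares cannot be read as those for Hist1 H2A probes, whose median saline standard deviation was 0.79, against 0.25 over all kept probes. Precision is limited by the number of arrays, 6 a group.

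All kept histone probes could be named; the lowest, median and highest values are given for the 6 clustered and 6 variant probes with the smallest p and for H2afx, H2afz, H2afv, H2afy, H3f3a, H3f3b and H1f0, and of each pathway list up to 4 called genes or otherwise 2 values. Members and lists were chosen with earlier results of these data known. A list gene is read by its brightest kept probe. All 72 array symbols matched RefSeq (GRCm38.p6), 69 of them as synonyms. Alternatives covered background correction, offset, normalization, source of values, detection filter, BeadChip, replicate number, eBayes settings, array weights, threshold, each mouse left out, and saline mice 2 and 5 left out.

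The labels number the mice 1 to 6 in each group. Deviations from the group means of mice with the same number correlated between -0.26 and 0.12, so the numbers were not taken to pair mice.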

Additional observations from a re-analysis of the deposited data

Results flagged for a closer look

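In 13 of 122 groups of 6 mice (61 histone probes in each treatment), 1 mouse lay so far from the next that the gap, as a share of the group's whole range, passed Dixon's critical value for 6 values; chance alone gives this in about 1 in 20 groups. Colistin mouse 4 accounted for 6 of these values. It was low for Hist1h4h (8.19), Hist1h4m (4.75), Hist1h2bn (8.56) and H3f3b (9.96), and high for Hist1h2bf (11.64) and Hist1h4j (7.75). Colistin mouse 3 was high in 3 groups, all of H2A genes: Hist1h2af (8.42), Hist1h2ai (11.65) and Hist2h2ac (11.64). Saline mouse 2 was low for a pair of H2B genes, Hist1h2bh (10.03) and Hist1h2bj (10.43). Colistin mouse 6 was low for Hist1h3e (4.80), and saline mouse 3 was high for the dimmest H2afj probe (6.26).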

How the results depend on the processing

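Of all kept probes, 74 were called with all mice. The count was 45 with an offset of 50, 37 from the authors' normalized values, 27 among probes detected on all 12 arrays, 33 with no detection filter, 471 with array weights, 138 at an adjusted p under 0.10, 0 on BeadChip 1, 298 on BeadChip 2, and 38 to 330 with 1 mouse left out (330 without saline mouse 1, 38 without saline mouse 4). Of the 74 calls 52 were higher in colistin kidneys, and of 64 under median centring 60 were. With the replicate number as a block, 36 probes were called on the array and 0 histone probes.

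Of the clustered histone probes, 9 were called with array weights and 9 without saline mice 2 and 5, against 0 with all mice. Under median centring 1 was called, Hist1h2ak at 1.15 (adjusted p = 0.0415). With 1 mouse left out, 0 to 1 clustered probe was called (Hist1h2ak at 1.14 without saline mouse 2, adjusted p = 0.0352) and 0 to 1 variant probe (H2afx without saline mouse 1). Over the 5 pathway lists, 15 genes were called with all mice, 4 among probes detected on all 12 arrays, 0 on BeadChip 1, and 13 to 16 with 1 mouse left out. The cause of these shifts was not tested, apart from the fewer mice or probes some settings hold.

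Small differences of variant genes changed sign in 10 cases. H3f3a was -0.035 and H2afz -0.039 on BeadChip 2, and H2afy was -0.11 without saline mice 2 and 5. The dimmer H3f3b probe ran from -0.337 to 0.0135 with 1 mouse left out, above 0 without saline mouse 2. The dimmer H2afv probe was 0.20 under median centring, 0.17 on BeadChip 1 and 0.096 without saline mice 2 and 5, and ran from -0.155 to 0.0283 with 1 mouse left out, above 0 without saline mouse 5. The brighter one was -0.0616 on BeadChip 2 and ran from -0.0321 to 0.0785 with 1 mouse left out, below 0 without saline mouse 1. Probes at background, such as those of Hist1h2ag in 4 saline mice, carry little information on the size of a change.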
